A study of Mus musculus with 29 samples.

Results

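Ly6C-low macrophages sorted from the spleen and the liver were compared between wild-type and Rnaset2-/- mice to find which genes responded to the loss of RNase T2 alike in both organs and which responded in 1 organ only. The 13 libraries of Ly6C-low macrophages were chosen from the 29 libraries of the series by their column names. They comprised 3 wild-type and 4 Rnaset2-/- libraries from the spleen, and 3 wild-type and 3 Rnaset2-/- libraries from the liver. The deficient mice lack both mouse genes for the enzyme, Rnaset2a and Rnaset2b, in every cell. The mice were untreated, and the labels give neither their age nor whether a library came from 1 animal. By the labels, the cells of all 4 groups were CD11b+, Fcgr4+ and negative for Ly6G, SiglecF and NK1.1. By the study's methods, splenocytes were first depleted of lymphocytes, neutrophils and erythroid cells with magnetic beads, whereas liver cells were gated on F4/80 and CD11b, so that organ and sorting route cannot be told apart. For the liver, the methods state the Ly6C and CD16.2 gates for Rnaset2-/- mice and only F4/80 and CD11b for wild-type mice, although the labels give both genotypes the same gate. Of 23930 genes in the table, 21922 lay on autosomes, and the 10871 of them with at least 1 RPM (reads per 1000000 reads of the library) in at least 3 of the 13 libraries were tested.

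RNase T2 is an acid ribonuclease of the lysosome, where it breaks down RNA that the cell has engulfed. Macrophages sense undegraded bacterial ribosomal RNA in the same compartment through TLR13. Ly6C-low macrophages derive from Ly6C-high monocytes and patrol vessels and tissue. In the liver, monocyte-derived cells can take on the gene programme of Kupffer cells, the resident macrophages, in which liver X receptors (LXRs) switch on genes of lipid transport and of the clearance of dead cells.

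Depth was 11175843 to 14572065 reads per library, so that 3 reads, taken as the limit of detection, came to between 0.206 and 0.268 RPM, which covers counting error only. Neither Rnaset2 nor the Ly6c genes are analysed here, so neither the genotype nor the Ly6C gate was checked with its own gene. All 10 genes that define monocytes and macrophages, among them Csf1r, Itgam and Lyz2, averaged at least 1 RPM in each of the 4 groups. The libraries also differed in ways that touch the results. Xist RNA was 476 to 695 RPM in the wild-type spleen libraries and 375 to 508 RPM in the wild-type liver libraries, but 0 RPM in all 3 Rnaset2-/- liver libraries and 0.781 RPM in replicate 2 of the Rnaset2-/- spleen group. The summed level of 4 Y-linked genes was between 199 and 301 RPM in those 4 libraries, and wild-type liver replicates 2 and 3 held 52.03 and 51.99 RPM of them beside their Xist RNA. In the liver, genotype and sex therefore cannot be told apart, and the interaction carries the same limit. Neutrophil markers summed to 1217 to 2600.0 RPM in wild-type spleen and to 42869, 24199.8, 4719 and 3733 RPM in the 4 Rnaset2-/- spleen libraries, so replicates 1 and 2 stood apart from the other two. Since nothing in the labels says that the libraries of a group came from separate mice, p-values measure the spread between libraries only.

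The genotype effect is the Rnaset2-/- mean minus the wild-type mean of log2(value + 1), in which the value is RPM divided by a scaling factor per library, and the interaction is the effect in the liver minus the effect in the spleen. In limma, a gene was called when its change was above 1.5-fold and its adjusted p was under 0.05. The response to RNase T2 deficiency was larger and broader in the liver. There, 2322 genes were higher (21.4% of those tested) and 2489 lower (22.9%) in Rnaset2-/- mice. In the spleen, 454 were higher (4.18%) and 447 lower (4.11%), which dropped to 178 and 148 without wild-type spleen replicate 2. The median absolute effect was 0.60 on the log2 scale in the liver and 0.27 in the spleen, with median standard errors of 0.24 and 0.22. The difference itself was called for 2922 genes (26.9%). The effect was more positive in the liver for 1331 of them (12.2%) and more negative for 1591 (14.6%).

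Averaged over both organs, 1638 genes (15.1%) were higher and 1755 (16.1%) lower in Rnaset2-/- mice. Averaged over genotypes, 2036 genes (18.7%) were higher and 1579 (14.5%) lower in the liver than in the spleen. In wild-type cells alone, 1691 genes (15.6%) were higher and 1247 (11.5%) lower in the liver, the former 1012 without wild-type liver replicate 3. In deficient cells these were 2224 (20.5%) and 2083 (19.2%). The mean squared organ difference over all genes tested was 0.803 in wild-type and 1.30 in Rnaset2-/- cells, in squared log2 units. Of the variation between the 4 group means, 44.4% fell to organ, 37.1% to genotype and 18.5% to their interaction.

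Across the 10871 genes, the effects in spleen and liver correlated with Pearson's r = 0.42 and Spearman's rho = 0.41. This is a description, since genes are not independent replicates. The effects had the same sign for 65.0% of genes. Of the 601 genes called in both organs, 532 (88.5%) moved in the same direction. Those 532 genes made up 59.0% of the spleen calls and 11.1% of the liver calls.

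**Figure D1:**
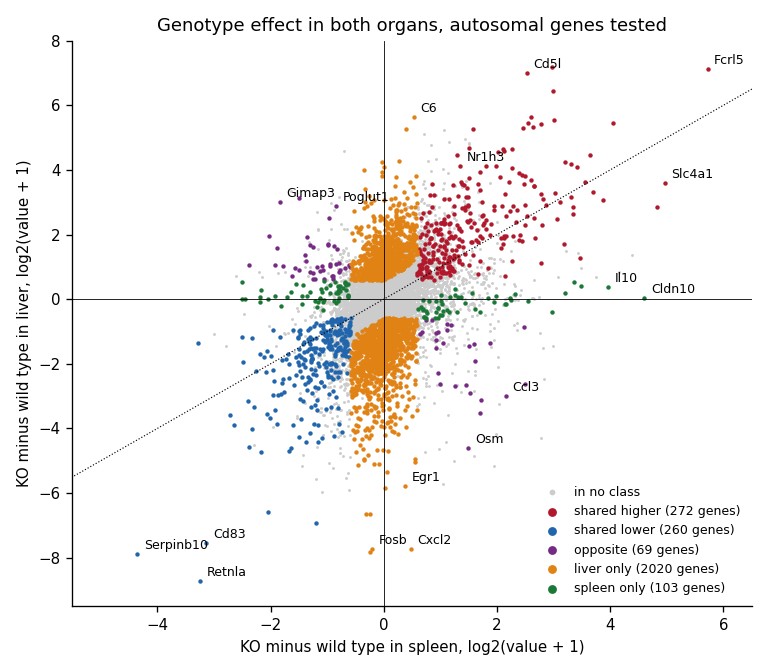
Genotype effect in the spleen (x axis) against that in the liver (y axis), both as log2(value + 1) differences of Rnaset2-/- (KO) minus wild type, with 1 point per gene and colours for the response classes. Liver-only genes (orange) run along the vertical axis, shared genes fill the upper right and lower left, and the dotted line marks equal effects.

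Sorted by response, 272 genes (2.5%) were higher and 260 (2.39%) lower in both organs. The effects were called in opposite directions for 42 genes that were higher in the liver (0.386%) and 27 that were lower there (0.248%). A response was termed liver only when the interaction and the liver effect were called and the spleen effect was under 1.5-fold. By this rule 894 genes (8.22%) were higher and 1126 (10.4%) lower in the liver only. The reverse rule gave 50 genes (0.46%) higher and 53 (0.488%) lower in the spleen only. A further 554 genes with the interaction called met none of these rules, and 247 of them were called in neither organ. Without wild-type spleen replicate 2 the shared genes numbered 129 higher and 93 lower, the opposite genes 15 and 8, and the spleen-only genes 16 and 16.

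A shared direction did not mean an equal size. The interaction was called for 91 of the 272 shared higher genes, and in 87 of these the rise was larger in the liver. For the 260 shared lower genes the counts were 85 and 83. The median effect of the shared higher genes was 1.97 in the liver and 1.29 in the spleen, and that of the shared lower genes -1.62 and -1.07. For each gene with the interaction called, the group mean farthest from the mean of the other 3 was also recorded. It was that of Rnaset2-/- liver for 1657 genes (56.7%), wild-type liver for 997 (34.1%), Rnaset2-/- spleen for 166 (5.68%) and wild-type spleen for 102 (3.49%). Over all genes tested the shares were 43.7%, 29.4%, 13.7% and 13.3% in the same order. Wild-type liver stood apart as the highest group for 621 of its 997 genes, whereas Rnaset2-/- liver was the highest for 818 of its 1657.

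**Figure D2:**
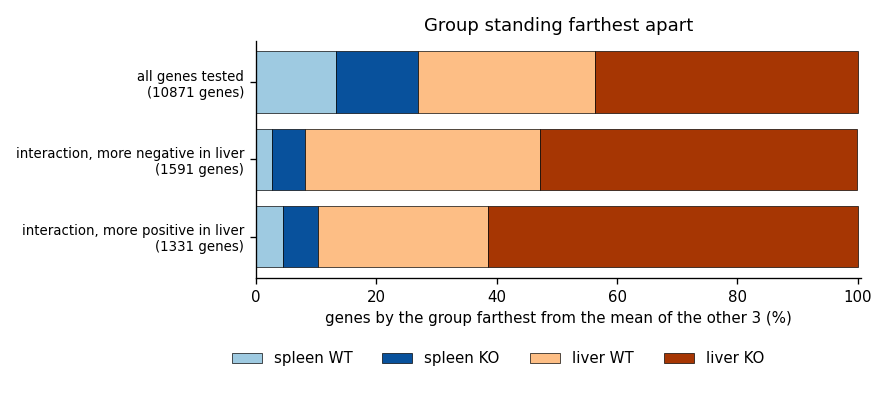
Share of genes (x axis, percent) by the group whose mean lies farthest from the mean of the other 3, for genes with a more positive or a more negative interaction and for all genes tested. Rnaset2-/- (KO) liver takes 61.5% and 52.7% of the interaction genes, against 43.7% of all genes.

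Interaction genes were spread over the genome. Their share of the tested genes was between 23.5% (chromosome 19) and 33.8% (chromosome 13) on the 19 autosomes. It was 22.9% among genes with a mean under 3 RPM over the 13 libraries and 33.8% among those with a mean of at least 100 RPM. At the edge of the filter, 390 genes reached 1 RPM in exactly 3 libraries and were tested, and 1079 reached it in exactly 2 and were not.

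Promoter sequences from RefSeq (GRCm38.p6, 250 bases before to 50 after the transcription start) were matched by symbol to 8376 of the 10871 genes. They are shown for the first-ranked genes of the 4 largest classes, to let the shared and the liver-only responses be seen beside their start regions. These are Fcrl5 for shared higher (chr3:87435532-87435831, plus strand), Serpinb10 for shared lower (chr1:107528753-107529052, plus strand), C6 for liver only higher (chr15:4726960-4727259, plus strand) and Cxcl2 for liver only lower (chr5:90903649-90903948, plus strand). Capitals mark matches on either strand to 6 motifs, which were AP-1 (TGANTCA), CRE (TGACGTCA), NF-kB (GGGNNTTTCC), PU.1 (GAGGAAGT), the E-box (CACGTG) and the TATA box (TATAAA).
Fcrl5: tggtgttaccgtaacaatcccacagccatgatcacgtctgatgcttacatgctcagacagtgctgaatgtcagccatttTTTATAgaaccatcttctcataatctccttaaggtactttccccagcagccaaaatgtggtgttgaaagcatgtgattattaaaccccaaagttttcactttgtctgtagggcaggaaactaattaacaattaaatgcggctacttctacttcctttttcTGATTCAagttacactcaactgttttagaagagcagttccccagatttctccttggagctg
Serpinb10: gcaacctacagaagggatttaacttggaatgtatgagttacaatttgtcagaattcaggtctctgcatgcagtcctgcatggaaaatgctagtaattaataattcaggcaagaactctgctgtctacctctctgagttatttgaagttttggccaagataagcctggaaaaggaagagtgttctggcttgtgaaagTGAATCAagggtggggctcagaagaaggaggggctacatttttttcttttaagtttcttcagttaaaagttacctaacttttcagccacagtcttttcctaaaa
C6: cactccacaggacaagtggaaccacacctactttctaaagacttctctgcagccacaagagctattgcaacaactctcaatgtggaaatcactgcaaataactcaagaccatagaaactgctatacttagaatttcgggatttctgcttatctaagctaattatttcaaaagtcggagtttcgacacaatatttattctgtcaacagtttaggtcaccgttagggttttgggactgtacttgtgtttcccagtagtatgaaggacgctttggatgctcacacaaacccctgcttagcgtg
Cxcl2: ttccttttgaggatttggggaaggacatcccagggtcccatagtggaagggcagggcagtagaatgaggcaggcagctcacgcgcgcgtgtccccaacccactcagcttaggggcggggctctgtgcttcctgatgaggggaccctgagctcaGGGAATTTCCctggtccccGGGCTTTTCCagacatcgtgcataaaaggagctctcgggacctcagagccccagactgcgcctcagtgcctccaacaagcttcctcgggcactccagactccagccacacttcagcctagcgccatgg

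The Fcrl5 window held 1 TATA match and 1 AP-1 match, the Serpinb10 window 1 AP-1 match and the Cxcl2 window 2 NF-kB matches. None of the 6 motifs was in these letters of the C6 window, nor in the windows of Gimap3, Ccl3, Cldn10 and Gzma, which ranked first or were the first with a promoter in the smaller classes. AP-1 matches were in 6.20% of all promoters of tested genes, 7.05% of those of liver-only lower genes and 5.67% of those of liver-only higher genes. NF-kB matches were in 2.14%, 3.11% and 1.56% in the same order, and PU.1 matches in 4.08% of all and 8.02% of shared higher promoters. These shares were not tested, and a match in such a window is a description, not a binding site.

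Among the genes higher in both organs, Fcrl5, an Fc receptor-like surface protein best known from B cells, ranked first by the smaller of its effects in the 2 organs. It measured 3.36, 2.88 and 1.62 RPM in the 3 wild-type and 271, 136, 164 and 194 RPM in the 4 Rnaset2-/- spleen libraries, and 1.90, 2.35 and 2.51 RPM in the 3 wild-type and 255, 818 and 450.0 RPM in the 3 Rnaset2-/- liver libraries. Every Rnaset2-/- library was thus far above every wild-type library in both organs. Its effect was 5.72 (SE 0.32, adjusted p = 3.27e-07) in the spleen and 7.11 (SE 0.35, adjusted p = 1.24e-08) in the liver, and the interaction was 1.40 (SE 0.47, adjusted p = 0.043). That call was lost without any of 10 of the 13 libraries (adjusted p = 0.0562 to 0.103) and without replicates 1 and 2 of deficient spleen together (adjusted p = 0.0576). Fcrl5 lies on chromosome 3 at 87435773 to 87500678 (GRCm38), and Cd5l lies near it at 87357881 to 87371073. Cd5l, which encodes the secreted macrophage protein AIM and is an LXR target, measured 41.5, 24.7 and 24.4 RPM in the 3 wild-type and 431, 173, 87.4 and 138 RPM in the 4 Rnaset2-/- spleen libraries, and 46.6, 46.98 and 70.7 RPM in the 3 wild-type and 9639, 6753 and 5478 RPM in the 3 Rnaset2-/- liver libraries. The groups did not overlap in either organ, and the liver rise was the larger one. Its effect was 2.53 (SE 0.39, adjusted p = 0.00208) in the spleen and 6.99 (SE 0.42, adjusted p = 6.36e-08) in the liver, with an interaction of 4.46 (SE 0.58, adjusted p = 1.75e-04). Kupffer cells of wild-type mice, sequenced beside them, averaged 6345 RPM of Cd5l and 2.33 RPM of Fcrl5.

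None of the other leading shared higher genes had the interaction called. Ndrg1, a stress-responsive gene, measured 5.31, 3.64 and 4.92 RPM in the 3 wild-type and 85.8, 80.4, 42.4 and 58.1 RPM in the 4 Rnaset2-/- spleen libraries, and 1.82, 2.53 and 4.12 RPM in the 3 wild-type and 25.2, 64.04 and 59.1 RPM in the 3 Rnaset2-/- liver libraries. It rose by 3.55 in the spleen and 3.64 in the liver, and the interaction was 0.08 (SE 0.48, adjusted p = 0.922), whose sign turned when single libraries were left out. Lox, which encodes the collagen cross-linking enzyme lysyl oxidase, was at most 0.895 RPM in any wild-type library and 63.9, 12.6, 7.45 and 12.6 RPM in deficient spleen and 21.7, 163 and 111 RPM in deficient liver. Pou2af1, a transcriptional coactivator of B cells, and Slc4a1, the anion exchanger of red cells, also ranked here. Pou2af1 measured 459, 134, 24.5 and 30.7 RPM in the deficient spleen libraries and 30.9, 10.9 and 95.3 RPM in the deficient liver libraries, against at most 7.14 RPM in wild type. Slc4a1 measured 321, 36.3, 17.8 and 25.2 RPM and 43.3, 13.5 and 21.97 RPM, against at most 2.88 RPM. In both genes replicate 1 of deficient spleen was the highest library. Without it and replicate 2, the interaction was 2.30 for Pou2af1 and -0.26 for Slc4a1. Markers of erythroid cells, of which Slc4a1 is one, summed to 1318, 374, 90.3 and 108 RPM in deficient spleen and 55.8 to 132 RPM in wild-type spleen. In the liver they summed to 69.1 to 182 and 3.73 to 7.76 RPM. B cell markers summed to 35.9 to 126 RPM in deficient and 34.7 to 37.4 RPM in wild-type spleen, and to 122 to 417 and 28.4 to 32.2 RPM in the liver. Their part in these results was not tested. In bulk samples more cells of a type and more RNA per cell cannot be told apart.

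Among the genes lower in both organs, Serpinb10, a serine protease inhibitor of myeloid cells, measured 306, 316 and 276 RPM in the 3 wild-type and 25.3, 20.5, 11.8 and 5.14 RPM in the 4 Rnaset2-/- spleen libraries, and 374, 369 and 327 RPM in the 3 wild-type and 0.462, 0.311 and 0.919 RPM in the 3 Rnaset2-/- liver libraries. Wild-type libraries of both organs lay between 276 and 374 RPM, and the fall was deeper in the liver. The effect was -4.36 (SE 0.35, adjusted p = 1.04e-05) in the spleen and -7.89 (SE 0.38, adjusted p = 1.18e-08) in the liver, with an interaction of -3.53 (SE 0.51, adjusted p = 3.51e-04). Retnla, a secreted product of alternatively activated macrophages, measured 42.5, 5.83 and 27.6 RPM in the 3 wild-type and 1.64, 2.48, 0.213 and 0.916 RPM in the 4 Rnaset2-/- spleen libraries, and 418, 389 and 431 RPM in the 3 wild-type and 0, 0 and 0 RPM in the 3 Rnaset2-/- liver libraries. It was thus at 0 in every deficient liver library, which is at least 1767-fold lower than the wild-type mean of 413 RPM when set against the floor of 3 reads per library. Cd83, a surface marker of activated antigen-presenting cells, measured 37.3, 102 and 39.8 RPM in the 3 wild-type and 3.56, 4.47, 8.72 and 4.86 RPM in the 4 Rnaset2-/- spleen libraries, and 477, 1496 and 645 RPM in the 3 wild-type and 2.62, 3.04 and 4.06 RPM in the 3 Rnaset2-/- liver libraries. The groups stood apart in both organs, and the interaction was -4.43 (SE 0.62, adjusted p = 2.87e-04). Nrarp, an inhibitor of Notch signalling, and Cited4, a transcriptional coactivator, fell in both organs, with no called difference between them when all libraries were kept. The interaction of Nrarp was -0.87 (SE 0.93, adjusted p = 0.528) and that of Cited4 -1.24 (SE 0.46, adjusted p = 0.0595). Without replicates 1 and 2 of deficient spleen both were called, at -2.15 (adjusted p = 0.00691) and -1.68 (adjusted p = 0.00568).

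In the opposite classes, deficiency raised a gene in 1 organ and lowered it in the other. Osm, which encodes the cytokine oncostatin M, measured 21.6, 20.5 and 21.4 RPM in the 3 wild-type and 101.0, 42.7, 65.04 and 48.9 RPM in the 4 Rnaset2-/- spleen libraries, and 30.7, 50.5 and 66.04 RPM in the 3 wild-type and 1.39, 0.623 and 1.07 RPM in the 3 Rnaset2-/- liver libraries. It was higher in every deficient spleen library than in wild-type spleen and lower in every deficient liver library than in wild-type liver. Its effect was 1.49 (SE 0.30, adjusted p = 0.00842) in the spleen and -4.61 (SE 0.32, adjusted p = 1.90e-07) in the liver. Ccl3, a chemokine that attracts monocytes and lymphocytes, followed the same course and measured 524, 362 and 483 RPM in the 3 wild-type and 1021, 1999.8, 2452 and 3234 RPM in the 4 Rnaset2-/- spleen libraries, and 1666, 1709 and 2219 RPM in the 3 wild-type and 196, 197 and 351 RPM in the 3 Rnaset2-/- liver libraries. Its interaction was -5.14 (SE 0.53, adjusted p = 3.36e-05). The linker histone Hist1h1d rose by 1.71 in the spleen and fell by 3.54 on the log2 scale in the liver. Histone genes are near-identical in sequence, so its reads may be shared with other members. Mmp9, a gelatinase stored in neutrophil granules, measured 756, 363, 64.8 and 67.4 RPM in deficient spleen and 27.7, 48.7 and 25.5 RPM in wild-type spleen. The 2 highest of these libraries were those high in neutrophil markers, and without them the interaction was -3.68 (adjusted p = 8.90e-05).

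In the other direction, Poglut1, a glucosyltransferase of the endoplasmic reticulum that modifies Notch, measured 45.4, 51.2 and 51.98 RPM in the 3 wild-type and 21.4, 27.96, 28.4 and 30.9 RPM in the 4 Rnaset2-/- spleen libraries, and 34.7, 26.7 and 32.7 RPM in the 3 wild-type and 243, 262 and 214 RPM in the 3 Rnaset2-/- liver libraries. Libraries of 1 group lay close together, and deficient liver stood far above the other 3 groups. The effect was -0.84 (SE 0.15, adjusted p = 0.00495) in the spleen and 2.87 (SE 0.16, adjusted p = 4.42e-08) in the liver, and the interaction was 3.71 (SE 0.23, adjusted p = 4.68e-07). The other leading genes of this class were Gimap3, a GTPase of lymphocytes, Lck, the kinase of the T cell receptor, and Gzmb, a granzyme of cytotoxic lymphocytes. Lck measured 10.1, 8.72 and 6.18 RPM in the 3 wild-type and 0.925, 3.62, 3.12 and 1.90 RPM in the 4 Rnaset2-/- spleen libraries, and 0.579, 0.610 and 0.0890 RPM in the 3 wild-type and 23.3, 7.24 and 8.35 RPM in the 3 Rnaset2-/- liver libraries. Gzmb and Gimap3 had interactions of 3.98 and 4.82 (adjusted p = 7.63e-05 and 1.55e-04), and reads of Gimap3 may be shared with other Gimap genes. Many lymphocyte markers also had a more positive effect in the liver, beside 12.2% of all genes tested, but their lists differed in the spleen. In deficient spleen, 9 of 12 natural killer cell, 1 of 10 T cell and 0 of 9 B cell markers were lower, beside 4.11% of all genes. There, 1 B cell marker was higher, beside 4.18% of all genes. Of 12 natural killer (NK) cell markers tested, 11 had a more positive effect in the liver, and their sum was 142 to 223 RPM in wild-type and 21.5 to 112 RPM in deficient spleen, and 14.05 to 16.8 and 42.1 to 118 RPM in the liver. Of 10 T cell markers tested, 8 were more positive in the liver, with sums of 34.8 to 46.2, 11.8 to 39.8, 16.2 to 34.9 and 51.1 to 165 RPM in the same order. Of 9 B cell markers, 5 were more positive in the liver, 1 to 5 with 1 of the 13 libraries left out, moving by over 1.5 times without deficient liver replicate 1, deficient liver replicate 2 or deficient liver replicate 3. The part of such cells in these results was not tested.

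**Figure D3:**
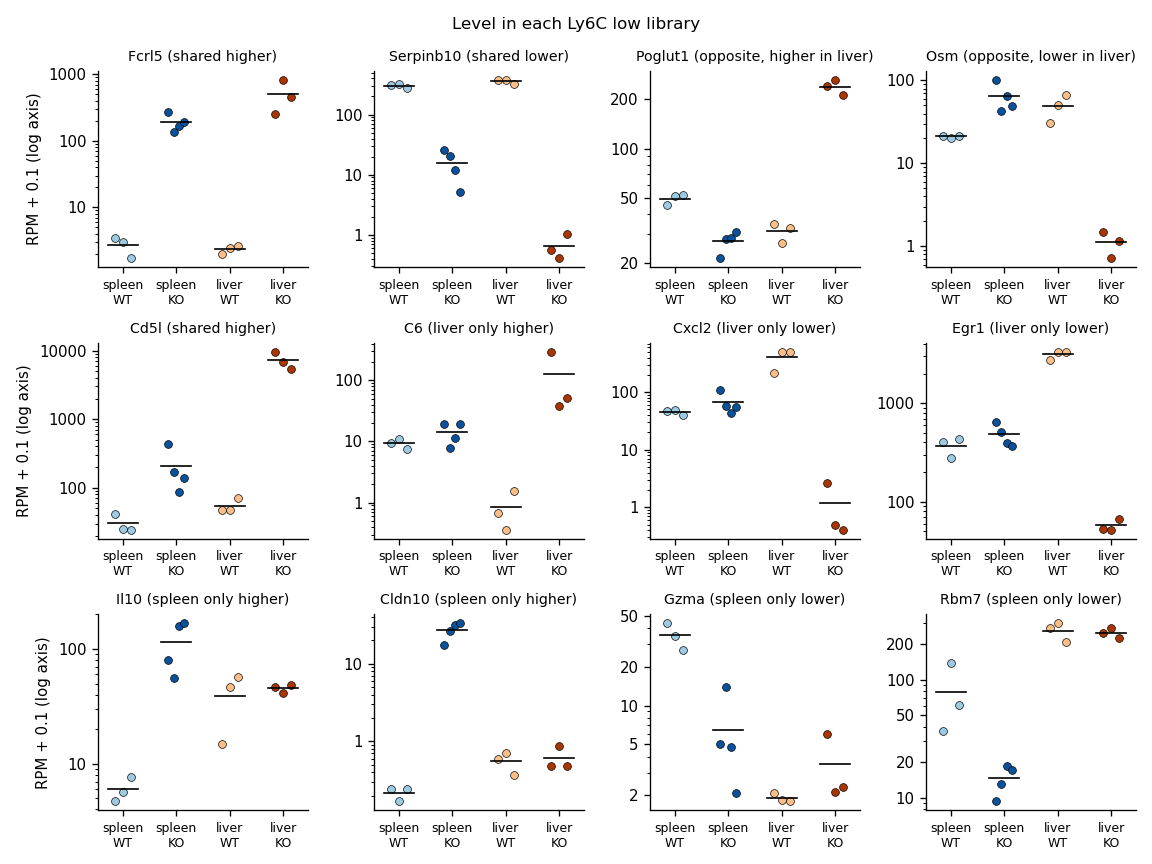
RPM (y axis, log scale, 0.1 added so that 0 can be drawn) of 12 genes in each of the 13 libraries, by organ and genotype (KO is Rnaset2-/-), with 1 point per library and a line at the group mean. Fcrl5, Serpinb10 and Cd5l move in the same direction in both organs, Osm and Poglut1 in opposite directions, and the remaining genes mostly in 1 organ.

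The genes higher in the liver only were led by C6, a terminal complement component made by Kupffer cells. C6 measured 9.37, 10.8 and 7.52 RPM in the 3 wild-type and 19.6, 7.74, 11.5 and 18.95 RPM in the 4 Rnaset2-/- spleen libraries, and 0.579, 0.261 and 1.43 RPM in the 3 wild-type and 294, 37.7 and 51.8 RPM in the 3 Rnaset2-/- liver libraries. Deficient liver was above wild-type liver in every library, and replicate 1 was the highest, while the spleen groups overlapped. The effect was 0.53 (SE 0.56, adjusted p = 0.593) in the spleen and 5.64 (SE 0.59, adjusted p = 6.88e-06) in the liver, with an interaction of 5.11 (SE 0.81, adjusted p = 6.36e-04). Rims3, known for its role in vesicle release at synapses, measured 6.46, 9.24 and 7.43 RPM in wild-type and 121, 178 and 214 RPM in deficient liver, against 23.3 to 50.4 RPM in all 7 spleen libraries. Pcolce2, an enhancer of procollagen processing, had an interaction of 4.87 (SE 0.71, adjusted p = 3.51e-04). Thy1, a surface protein of T cells, had one of 4.33 (SE 0.75, adjusted p = 0.00118) and is read beside the T cell sums above.

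Of the genes that mark Kupffer cells, 15 were higher and 2 lower in deficient liver, beside 21.4% and 22.9% of all genes tested. In deficient spleen 5 were higher and 2 lower, beside 4.18% and 4.11% of all genes. Of 21 such genes tested, 11 had a more positive effect in the liver and 0 a more negative one, beside 12.2% and 14.6% of all genes tested. Their median effect was 2.93 in the liver and 0.53 in the spleen, against 0.02 and 0.01 over all genes. The sum of the 22 genes was 1470.2, 2094 and 2176 RPM in wild-type liver and 16769.8, 11218 and 9938 RPM in deficient liver. In the spleen it was 889, 829.7 and 822 RPM in wild-type and 1993, 1447, 1692 and 2055 RPM in deficient libraries. Kupffer cells themselves held 10382 to 28009 RPM. Cd5l is on the list and made up much of these sums, with 5478 to 9639 RPM in deficient liver. The rise was uneven between members. Timd4, the receptor Tim4 for dead cells, measured 0.911, 0.261 and 0.537 RPM in wild-type and 66.8, 10.04 and 13.02 RPM in deficient liver, and Clec4f, a lectin of Kupffer cells, 15.1, 4.01 and 5.19 and 63.3, 17.7 and 53.1 RPM. Kupffer cells averaged 365 and 4197 RPM of them, so both stayed far below that level. Clec1b, a C-type lectin, averaged 459 RPM in deficient liver and 489 RPM in Kupffer cells, and Folr2, a folate receptor, 30.5 and 1095 RPM. Cd163, the scavenger receptor for haemoglobin, fell in both organs instead (effect -2.12 in the spleen and -1.78 in the liver). Clec1b, Folr2 and Cd163 are named here after their values were seen. Markers of sinusoidal endothelial cells, which line the vessels that Kupffer cells sit in, summed to 405 to 739 RPM in wild-type and 1846 to 5082 RPM in deficient liver, and to 299.6 to 354 and 1507 to 2270.0 RPM in the spleen. Of these, Pecam1 alone averaged 151 and 1950.0 RPM in the liver and 297 and 1883 RPM in the spleen. In deficient liver 3 of the 12 markers were higher and in deficient spleen 1, beside 21.4% and 4.18% of all genes. None of the 12 had the interaction called, beside 12.2% more positive and 14.6% more negative of all genes. Their median interaction was 0.66, so the missing calls do not show equal effects.

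The gene of the receptor LXRα and some LXR targets were also higher in deficient liver. Nr1h3, which encodes LXRα, measured 36.3, 31.98 and 38.7 RPM in the 3 wild-type and 143, 78.9, 70.1 and 88.3 RPM in the 4 Rnaset2-/- spleen libraries, and 42.6, 50.6 and 36.5 RPM in the 3 wild-type and 589, 1024 and 773 RPM in the 3 Rnaset2-/- liver libraries. It rose in both organs, by 1.35 in the spleen and 4.12 in the liver, with an interaction of 2.77 (SE 0.32, adjusted p = 7.66e-05). Its partner Rxra measured 107, 183 and 142 RPM in wild-type and 836, 671 and 877 RPM in deficient liver, and the spleen groups overlapped, with an effect of 0.23 (SE 0.20, adjusted p = 0.524). Of 20 genes on the LXR target list, 10 were higher and 3 lower in deficient liver, beside 21.4% and 22.9% of all genes tested. In deficient spleen 3 were higher and 3 lower, beside 4.18% and 4.11% of all genes. By class, 3 were shared higher and 1 was higher in the liver only. The interaction was more positive in the liver for 8 and more negative for 0. Over all genes tested the shares were 12.2% and 14.6%. The count of 8 was 5 to 9 with 1 of the 13 libraries left out, moving by over 1.5 times without wild-type spleen replicate 3, wild-type liver replicate 3 or deficient liver replicate 2. Lpl, the lipoprotein lipase, averaged 104 RPM in wild-type and 1020.0 RPM in deficient liver, with an interaction of 3.96 (SE 0.44, adjusted p = 5.53e-05). The list did not move as 1 block. Apoe, the main apolipoprotein of macrophages, fell in both organs, from a mean of 268 to 65.3 RPM in the spleen and from 472 to 257 RPM in the liver. Scd1, the stearoyl-CoA desaturase, fell in the spleen only, so that its interaction was positive without a rise in the liver (effect 0.08 there). Mylip and Elovl5 passed no test in either organ.

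Of 21 genes for the clearance of dead cells and for complement, 6 were more positive in the liver and 2 more negative, beside 12.2% and 14.6% of all genes tested. The second count was 2 to 4 with 1 of the 13 libraries left out, moving by over 1.5 times without deficient liver replicate 1 or deficient liver replicate 3. Axl and Mertk, receptor kinases that bind dead cells, had interactions of 1.40 (SE 0.37, adjusted p = 0.0139) and 1.88 (SE 0.63, adjusted p = 0.0421). The call of Mertk was lost without any of 10 of the 13 libraries (adjusted p = 0.0584 to 0.0984). C1qb, a chain of complement C1q, rose in both organs, from 64.4 ± 10.4 RPM (SD, n = 3) to 324 ± 308 RPM (SD, n = 4) in the spleen and from 628 ± 173 RPM (SD, n = 3) to 4233 ± 264 RPM (SD, n = 3) in the liver, and its interaction of 0.82 (SE 0.64, adjusted p = 0.376) was not called. Replicate 1 of deficient spleen held 784 RPM, and without it and replicate 2 the interaction was called, at 1.47 (adjusted p = 0.0094). C3ar1, the receptor for complement fragment C3a, rose in the spleen instead, from 1.89, 1.92 and 1.69 RPM to 98.9, 57.4, 15.04 and 21.3 RPM, while its liver effect was 0.69 (SE 0.49, adjusted p = 0.264). Among 43 lysosomal genes, 11 were more positive in the liver and 3 more negative, beside the same 12.2% and 14.6% of all genes. The second count was 1 to 5 with 1 of the 13 libraries left out, moving by over 1.5 times without wild-type liver replicate 3 or deficient liver replicate 1. Pld3, a nuclease of the lysosome, had an interaction of 1.96 (SE 0.51, adjusted p = 0.0134). The nuclease genes Pld4 and Dnase2a were higher in the liver only as well (interaction 1.38 and 1.22), and both are named after their values were seen. Of 14 iron and heme genes, 3 were more positive in the liver and 1 more negative, beside the same shares of all genes, and the second count was 1 to 2 with 1 of the 13 libraries left out, moving by over 1.5 times without deficient spleen replicate 1 or deficient liver replicate 1. Slc40a1, the iron exporter ferroportin, measured 16.3, 19.96 and 22.7 RPM in wild-type and 678, 175 and 146 RPM in deficient liver. Bach1, a repressor of heme-responsive genes, fell in the liver only, with an effect of -1.34 (SE 0.29, adjusted p = 0.00178).

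The genes lower in the liver only were led by Cxcl2, Neat1, Fosb and Alox15. Cxcl2, a chemokine for neutrophils, measured 46.7, 48.9 and 39.6 RPM in the 3 wild-type and 111, 57.6, 42.9 and 56.2 RPM in the 4 Rnaset2-/- spleen libraries, and 218, 505 and 506 RPM in the 3 wild-type and 2.54, 0.389 and 0.306 RPM in the 3 Rnaset2-/- liver libraries. Deficient liver was near or below 3 RPM in every library, wild-type liver was the highest group, and the spleen groups overlapped. The effect was 0.48 (SE 0.40, adjusted p = 0.479) in the spleen and -7.73 (SE 0.42, adjusted p = 3.20e-08) in the liver, with an interaction of -8.21 (SE 0.58, adjusted p = 1.68e-06). The nuclear long noncoding RNA Neat1 measured 2901, 1864 and 1494 RPM in wild-type and 9.16, 7.08 and 7.89 RPM in deficient liver. Its spleen libraries ranged from 178 to 774 RPM. Alox15, a lipoxygenase of resident macrophages, measured 69.8, 98.6 and 197 and 0.539, 0 and 0 RPM in the liver, with an interaction of -6.39 (SE 0.67, adjusted p = 4.26e-05).

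Immediate early genes encode transcription factors and regulators that are induced within minutes of a stimulus, and tissue dissociation also induces them. Of 42 such genes tested, 39 had a more negative effect in the liver and 0 a more positive one. Over all genes tested the shares were 14.6% and 12.2%. Their median effect was -3.27 in the liver and -0.15 in the spleen. Summed, they took 36605, 49029.7 and 52238 RPM in wild-type liver and 3101, 4361 and 3712 RPM in deficient liver. In the spleen the sums were 30890.2, 24826 and 29127 RPM in wild-type and 21674, 24463, 30975 and 28722 RPM in deficient libraries, and in Kupffer cells 5004 to 6468 RPM. Both spleen groups thus overlapped, wild-type liver lay above them and deficient liver below. Fosb, a subunit of AP-1, measured 235, 328 and 288 RPM in wild-type and 0.847, 0.389 and 0 RPM in deficient liver, with an interaction of -7.53 (SE 0.37, adjusted p = 1.13e-07). Egr1, a zinc finger factor, measured 403, 279 and 433 RPM in the 3 wild-type and 649, 516, 399 and 366 RPM in the 4 Rnaset2-/- spleen libraries, and 2756, 3306 and 3341 RPM in the 3 wild-type and 53.3, 51.8 and 66.5 RPM in the 3 Rnaset2-/- liver libraries, with an interaction of -6.16 (SE 0.30, adjusted p = 1.13e-07). The heat shock genes Hspa1a and Hspa1b, near-identical copies whose reads may be shared and which are named after their values were seen, averaged 1631 and 2247 RPM in wild-type liver and at most 66.3 RPM in the other groups. Nr4a1, the nuclear receptor on which patrolling monocytes depend, measured 5028, 4421 and 5241 RPM in the 3 wild-type and 2449, 4189, 7614 and 6751 RPM in the 4 Rnaset2-/- spleen libraries, and 5025, 6375 and 6413 RPM in the 3 wild-type and 310.4, 1008 and 549 RPM in the 3 Rnaset2-/- liver libraries. The study's methods describe a single dissociation procedure for livers but do not say whether livers of both genotypes were processed together. The part of cell preparation in these results was not tested.

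Of 44 NF-κB response genes, 23 were more negative in the liver and 0 more positive, beside 14.6% and 12.2% of all genes tested. Their median effect was -1.63 in the liver and 0.17 in the spleen. Ccl2, the chief chemokine for monocytes, measured 91.2, 147 and 114 RPM in wild-type and 14.6, 2.10 and 2.60 RPM in deficient liver, with an interaction of -5.51 (SE 0.79, adjusted p = 3.10e-04). Il1b, which encodes interleukin-1β and is named after its values were seen, was higher in the spleen only, with means of 325 and 1651 RPM there and 1243 and 1457 RPM in the liver. Ikbke, a kinase upstream of interferon genes named for the same reason, rose in both organs, by 2.87 in the spleen and 2.91 in the liver. Of 11 genes of alternative activation, 8 were more negative in the liver and 2 more positive, beside the same shares of all genes. The second count was 1 to 2 with 1 of the 13 libraries left out. Ccl22, a chemokine for regulatory T cells, measured 115, 163 and 128 RPM in wild-type and 0.616, 1.25 and 1.99 RPM in deficient liver, and at most 3.91 RPM in the spleen.

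For MHC class II genes, which present antigen to helper T cells, the calls depended on 1 library. Their sum was 25839, 34980.1 and 31789 RPM in wild-type liver and 28699.9, 2974 and 2619.9 RPM in deficient liver, so replicate 1 of deficient liver was within the wild-type range and the other two were far lower. In the spleen the sums were 6550.4 to 7075 RPM in wild-type and 4152 to 5563 RPM in deficient libraries. The interaction was called for 3 of 11 genes, all more negative in the liver, beside 14.6% of all genes tested. Without replicate 1 of deficient liver it was called for 10 of 11. H2-Oa and H2-DMb2, chains of the chaperones that edit class II peptides, were called with all libraries, with interactions of -2.61 (SE 0.72, adjusted p = 0.017) and -1.81 (SE 0.52, adjusted p = 0.0217). The call of H2-DMb2 was lost without wild-type spleen replicate 2 or wild-type liver replicate 1 (adjusted p = 0.0514 to 0.0542). The same library also differed in markers of classical monocytes, which summed to 644, 58.8 and 130.0 RPM in deficient liver and 1186 to 1389 RPM in wild-type liver. Of 8 such genes, 5 were more negative in the liver, beside 14.6% of all genes tested. The count was 3 to 7 with 1 of the 13 libraries left out. Fn1, the matrix protein fibronectin, measured 221, 391 and 461 RPM in wild-type and 6.62, 4.51 and 4.29 RPM in deficient liver, and F13a1, a coagulation factor chain, had an interaction of -4.22 (SE 1.00, adjusted p = 0.00763). Dendritic cell markers, which share class II expression, summed to 461 to 572 RPM in wild-type and 196 to 359 RPM in deficient liver. Their part was not tested.

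Of 13 genes that mark patrolling monocytes, 6 were more negative in the liver and 0 more positive, beside 14.6% and 12.2% of all genes tested. Pglyrp1, a peptidoglycan-binding protein, measured 679, 615 and 691 RPM in the 3 wild-type and 784, 781, 776 and 598 RPM in the 4 Rnaset2-/- spleen libraries, and 230.4, 255 and 249 RPM in the 3 wild-type and 18.8, 11.4 and 12.1 RPM in the 3 Rnaset2-/- liver libraries. The spleen groups overlapped, and the liver groups did not, which gave an interaction of -4.24 (SE 0.24, adjusted p = 3.37e-07). Cx3cr1, the fractalkine receptor, measured 106, 70.5 and 81.96 RPM in wild-type and 29.6, 18.5 and 12.3 RPM in deficient liver and had an interaction of -1.87 (SE 0.60, adjusted p = 0.0333). That call was lost without any of 9 of the 13 libraries (adjusted p = 0.0555 to 0.0837). Ccr2, the chemokine receptor of classical monocytes, measured 219, 142 and 154 RPM in wild-type and 43.3, 8.56 and 6.28 RPM in deficient liver and had an interaction of -2.50 (SE 0.87, adjusted p = 0.0474), a call that was lost without any of 10 of the 13 libraries (adjusted p = 0.0567 to 0.11) and without replicates 1 and 2 of deficient spleen together (-1.62, adjusted p = 0.129). Treml4, Spn and Adgre4, further genes of this list, passed no test in either organ. Fcgr4, which was used in the sort and is therefore no finding, averaged 790.3 and 3875 RPM in wild-type and deficient spleen and 435 and 3382 RPM in the liver.

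**Figure D4:**
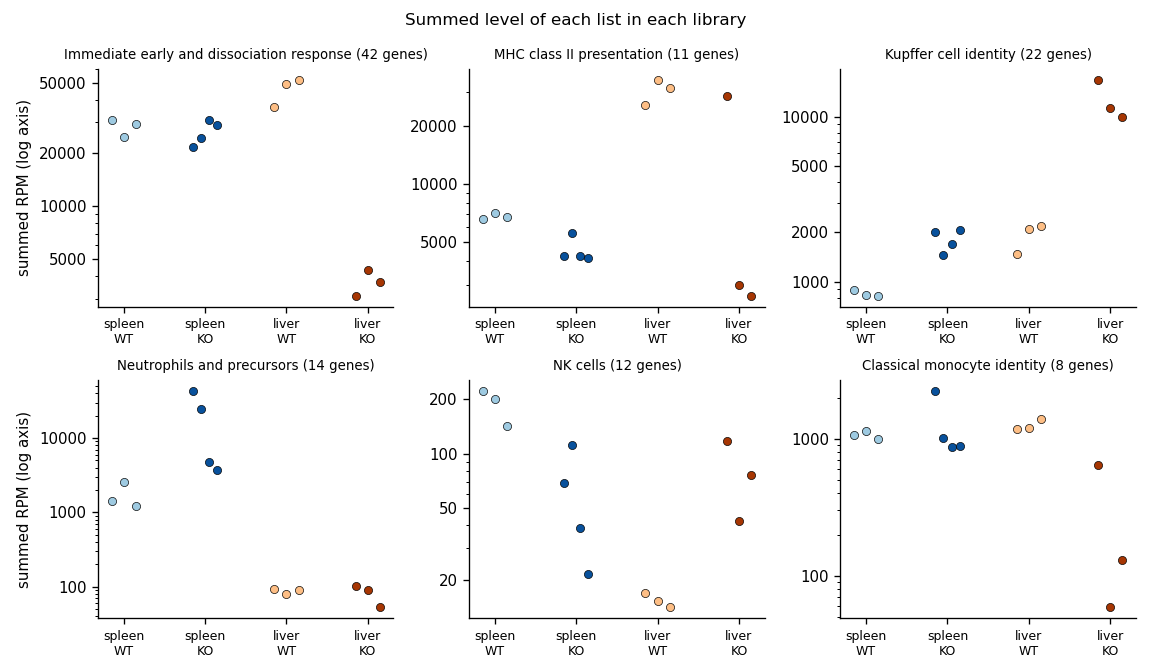
Summed RPM (y axis, log scale) of 6 gene lists in each of the 13 libraries by organ and genotype (KO is Rnaset2-/-), with 1 point per library. Immediate early genes are low in deficient liver only, 1 deficient liver library keeps the class II level of wild type, and neutrophil markers are highest in 2 deficient spleen libraries.

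Fewer genes responded in the spleen only. Il10, an anti-inflammatory cytokine, measured 4.61, 5.56 and 7.52 RPM in the 3 wild-type and 80.4, 55.8, 157 and 167 RPM in the 4 Rnaset2-/- spleen libraries, and 14.7, 46.1 and 56.4 RPM in the 3 wild-type and 46.7, 41.1 and 48.8 RPM in the 3 Rnaset2-/- liver libraries. Every deficient spleen library was above every wild-type one, and deficient liver lay within the range of wild-type liver. The effect was 3.96 (SE 0.46, adjusted p = 2.34e-04) in the spleen and 0.38 (SE 0.49, adjusted p = 0.547) in the liver, with an interaction of -3.58 (SE 0.67, adjusted p = 0.002). Cldn10, a tight junction claudin, measured 0.140, 0.0690 and 0.140 RPM in wild-type and 17.4, 26.5, 31.7 and 32.97 RPM in deficient spleen, and was below 1 RPM in all 6 liver libraries. Epx, the eosinophil peroxidase, measured 1.19, 3.29 and 0.351 and 24.1, 26.3, 17.2 and 36.2 RPM in the spleen, and 1.31, 0 and 0 RPM in deficient liver. It was at 0 in wild-type liver, and the sign of its interaction turned with the count models. Ltf, the lactoferrin of neutrophil granules, measured 63.9, 157 and 59.9 RPM in wild-type and 2406, 1333, 257 and 237 RPM in deficient spleen, and its interaction without the 2 highest libraries was -1.99 (adjusted p = 0.00863). Of 14 neutrophil markers, 9 were higher in deficient spleen, beside 4.18% of all genes tested. The interaction was called for 5, all more negative in the liver, beside 14.6% of all genes. That count was 4 to 9 with 1 of the 13 libraries left out, moving by over 1.5 times without deficient spleen replicate 4. In the liver they summed to at most 103 RPM in the 6 libraries. The part of such cells in these results was not tested.

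Without replicates 1 and 2 of deficient spleen, both high in neutrophil markers, 280 genes were higher and 231 lower in the spleen, and the interaction was called for 2989 genes, 2460 of them among the 2922 called with all libraries. Shared higher genes then numbered 187 and shared lower 145, and 37 and 34 genes were higher and lower in the spleen only. The interaction of Il10 without them was -4.26.

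Genes lower in the spleen only included Gzma, a granzyme of NK cells, which measured 43.5, 34.9 and 26.8 RPM in wild-type and 4.91, 13.8, 4.68 and 1.97 RPM in deficient spleen and is read beside the NK cell sums above. Scd1 measured 33.9, 26.01 and 23.7 RPM in wild-type and 9.53, 4.54, 5.04 and 3.31 RPM in deficient spleen, and the call of its interaction was lost without wild-type spleen replicate 1, deficient liver replicate 1 or deficient liver replicate 3 (adjusted p = 0.0543 to 0.0647). Rbm7, a factor of nuclear RNA decay, measured 37.04, 138 and 61.3 RPM in the 3 wild-type and 9.25, 12.99, 18.7 and 17.2 RPM in the 4 Rnaset2-/- spleen libraries, and 272, 300.4 and 208 RPM in the 3 wild-type and 247, 274 and 227 RPM in the 3 Rnaset2-/- liver libraries. Ifi203, an interferon-inducible gene of a family of close copies, whose reads may be shared, had an effect of -2.05 (SE 0.36, adjusted p = 0.00393) in the spleen and 0.01 (SE 0.39, adjusted p = 0.984) in the liver. In both genes the liver libraries lay above those of the spleen, whatever the genotype.

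The genes that the study itself names were chosen on these samples, so their direction is not independent evidence. Of 19 tested, 7 were more positive and 6 more negative in the liver, beside 12.2% and 14.6% of all genes tested. The second count was 2 to 6 with 1 of the 13 libraries left out. It moved by over 1.5 times without wild-type liver replicate 1, wild-type liver replicate 2 or wild-type liver replicate 3. Tnf measured 11.4, 14.2 and 13.2 RPM in wild-type and 4.47, 2.72 and 0.995 RPM in deficient liver and at most 2.20 RPM in the spleen, with an interaction of -1.43 (SE 0.41, adjusted p = 0.0213). That call was lost without wild-type spleen replicate 3, wild-type liver replicate 2 or wild-type liver replicate 3 (adjusted p = 0.0522 to 0.0551). The highest value in the other 3 groups was 2.63 RPM for Il6 and 0.285 RPM for Ifnb1. In wild-type liver Il6 measured 3.64, 9.76 and 9.75 RPM and Ifnb1, which encodes interferon-β, 4.14, 18.8 and 16.8 RPM. Their interactions were -2.71 (SE 0.51, adjusted p = 0.00201) and -3.37 (SE 0.56, adjusted p = 8.86e-04). Of 32 interferon-stimulated genes tested, 5 were more negative in the liver (3 to 6 with 1 of the 13 libraries left out) and 0 more positive, a share near the 14.6% of all genes, and the median interaction was -0.11. Rsad2, the antiviral protein viperin, rose in both organs (effect 2.44 and 1.79), with an interaction of -0.66 (SE 0.79, adjusted p = 0.581), which was -0.05 without replicates 1 and 2 of deficient spleen. The interaction was 0.66 (SE 0.42, adjusted p = 0.263) for the RNA sensor Ifih1, -0.62 (SE 0.70, adjusted p = 0.556) for Mx1 and -0.30 (SE 0.36, adjusted p = 0.583) for Oas1a, none of them called. Isg20 and Usp18, an RNA exonuclease and a brake on interferon signalling, fell in the liver only (interaction -2.12 and -1.73).

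Few genes of the cell cycle had a called difference between organs. Over all genes tested, 14.6% were more negative in the liver and 12.2% more positive. Of 39 S phase genes, 2 were more negative in the liver (among them Tipin, which acts in replication) and 0 more positive, and the first count was 2 to 5 with 1 of the 13 libraries left out, moving by over 1.5 times without wild-type liver replicate 2. Their median effects were 0.54 in the spleen and 0.34 in the liver. Of 51 G2/M genes, 4 were more negative (1 to 5 with 1 of the 13 libraries left out) and 1, Anp32e, more positive, and the medians were 0.97 and 0.51. In deficient spleen the sums were 1849, 1088, 727 and 663 RPM for S phase and 3550.1, 2309, 1585 and 1479 RPM for G2/M, against 646 to 776 and 1525 to 1819 RPM in wild-type spleen, so that only the 2 libraries high in neutrophil markers lay above wild type. Without these libraries, 1 S phase and 3 G2/M genes were more positive in the liver and 3 and 3 more negative. Bub1, a kinase of the mitotic checkpoint, had an interaction of -2.01 (SE 0.57, adjusted p = 0.0195), a call that was lost without wild-type liver replicate 1 (adjusted p = 0.0529). Mki67, the proliferation marker Ki-67, measured 4.96, 13.04 and 5.27 RPM in the 3 wild-type and 77.95, 41.7, 10.5 and 12.96 RPM in the 4 Rnaset2-/- spleen libraries, and 20.7, 24.8 and 26.8 RPM in the 3 wild-type and 43.6, 38.7 and 24.7 RPM in the 3 Rnaset2-/- liver libraries. Its interaction of -1.27 (SE 0.78, adjusted p = 0.247) was not called, and the 2 highest spleen libraries were those high in neutrophil markers, without which it was -0.23 (adjusted p = 0.76). Of 19 genes of sterol synthesis and uptake, 2 were more positive and 4 more negative in the liver, near the 12.2% and 14.6% of all genes. These counts were 1 to 3 with 1 of the 13 libraries left out, and 2 to 5 with 1 of the 13 libraries left out, moving by over 1.5 times without wild-type liver replicate 2 or wild-type liver replicate 3. Hepatocyte markers summed to 50.7 to 205 RPM in wild-type and 14.8 to 91.7 RPM in deficient liver. The interaction was called for 0 of 8, beside 12.2% more positive and 14.6% more negative of all genes tested.

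**Figure D5:**
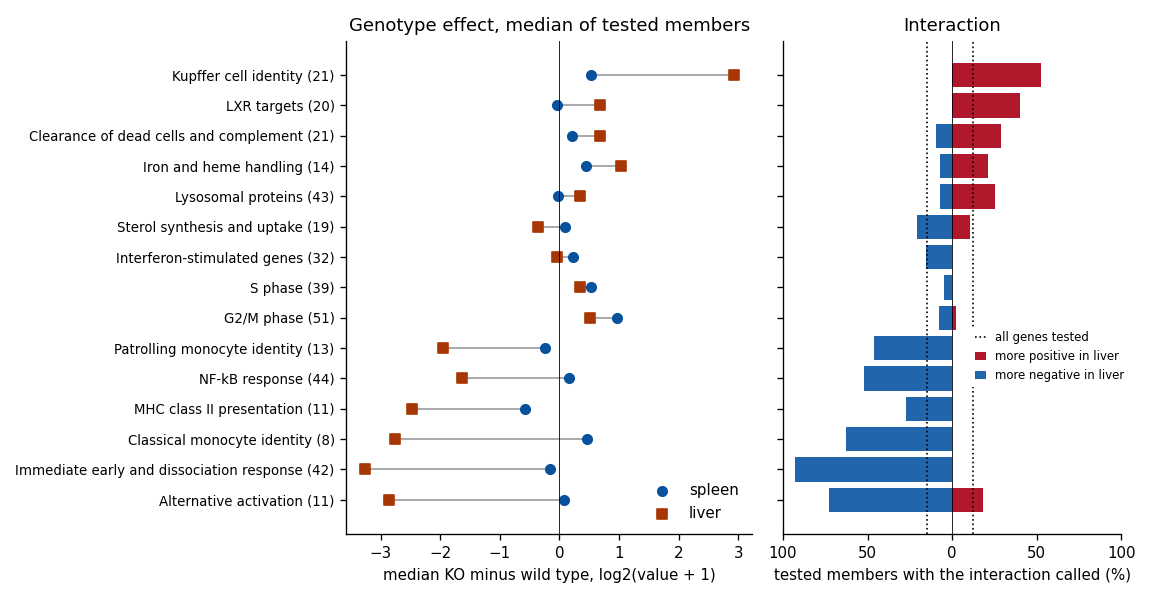
Left, median genotype effect (x axis, log2(value + 1) difference of Rnaset2-/-, KO, minus wild type) of 15 gene lists in spleen and liver, with the number of members tested. Right, percent of tested members with the interaction called, more positive (red) or more negative (blue) in the liver, with dotted lines at 12.2% and 14.6%, the shares over all genes tested. Kupffer cell genes sit highest and immediate early and alternative activation genes lowest in the liver.

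The same interaction was fitted in the 12 libraries of Ly6C-high macrophages, which entered none of the values above. This was done after the calls were seen, and the genotype and sex of the liver groups run together there too. It is not stated whether both subsets came from the same mice. In both, wild-type liver replicates 2 and 3 held Y-linked RNA beside their Xist RNA (28.95 and 41.42 RPM in Ly6C-high). Agreement between the subsets is therefore not taken as independent evidence. Of the 2922 genes, 2784 were tested and 2192 (78.7%) had an interaction of the same sign, against 65.3% over the 10514 genes tested in both subsets. Of the 2784, 1111 were called with the same sign and 96 with the other sign. Over the 10514 genes, 2653 were called in Ly6C-high cells with the same sign and 825 with the other. The share of the same sign was 82.3% for liver-only lower, 77.0% for liver-only higher, 73.3% for spleen-only higher and 52.8% for spleen-only lower genes. The values in Ly6C-high cells were -4.71 for Egr1, -5.71 for Cd83, 7.61 for Cd5l and 2.22 for Fcrl5. They were -0.13 for Nr1h3, 0.14 for Rxra and 0.16 for Lpl (adjusted p = 0.836, 0.701 and 0.887), all of which were called in Ly6C-low cells. H2-Oa and H2-DMb2 had the opposite sign, at 3.70 and 3.43. Genes of lymphocytes moved with these values, at 8.41 for Gimap3, 8.34 for Lck, 8.05 for Thy1, 7.25 for Gzmb and 7.24 for Pou2af1, and their part was not tested. Whether the interaction differs between the subsets was not tested.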

How the data were processed

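RNA of sorted macrophages was amplified with a targeted panel (Ion AmpliSeq mouse transcriptome), with 1 amplicon per gene, and sequenced on an Ion Proton. The values are RPM, reads of a gene per 1000000 reads of its library, which the authors deposited after counting reads per gene and scaling each library. The submitters' processing notes name the mm10 build, and amplicon counts say nothing about the rest of a transcript. Low values were whole multiples of the value of 1 read, and 100% of values came out whole within a tolerance of 0.1, so that counts were recovered for count models.

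Genes of the whole table, X and Y included, were placed with GENCODE vM21 (21334 by symbol) and RefSeq (969 by symbol and 428 by synonym). The 1197 unplaced genes and those not on autosomes were left out of the main fit. Scaling factors by relative log expression were applied to the RPM, 1 was added, and limma (3.58.1, R 4.3.3) with a mean-variance trend was fitted to log2 values of 4 group means over the 13 libraries. Adding 1 understates changes of low genes. Genes were called over 1.5-fold at a Benjamini-Hochberg adjusted p below 0.05 over the 10871 genes. Alternatives were another added value, no filter, other scaling, DESeq2 (1.42.0) and edgeR (4.0.16) on recovered reads, all 29 libraries, a replicate block, library weights, other thresholds, inclusion of the X and Y chromosomes and each library left out.

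Named genes had a mean of at least 10 RPM in a group. They were, in each class, the 4 of largest interaction (for shared genes, the 5 of largest smaller effect), without overlap of genotypes for shared and organ-only genes, plus the study's genes and the 2 of largest interaction in each list. The genes, lists and rules were chosen with earlier results of these data known. Data were simulated with the 13 libraries' design and depth, an assumed dispersion of 0.05 and 200 changed genes above 10 RPM among 10871. Of these, 193 of 200 were recovered with a 4-fold interaction and 23 of 200 with a 2-fold one. The real fit called 2922 genes, far more than were changed there, so its adjusted p limit was looser. The simulated shares therefore do not carry over to the real fit. No pair of libraries agreed within sampling noise. Libraries were not taken as paired by replicate number, though the correlations given below cannot exclude pairing. The RNase T2 and Ly6c genes, and some genes that the rule would name, are not reported here.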

Additional observations from a re-analysis of the deposited data

Results flagged for a closer look

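In the group of 4 deficient spleen libraries, 1 library lay apart from the other 3 by Dixon's criterion for some of the named genes, which chance does in about 1 in 20 groups. Replicate 1 was the high one for Lox (63.9 RPM), Slc4a1 (321 RPM), Rsad2 (104 RPM), C1qb (784 RPM), Mertk (28.7 RPM), Bub1 (6.19 RPM), Slc40a1 (167 RPM), Pld3 (100.7 RPM) and F13a1 (319 RPM). Replicate 4 was the low one for Pglyrp1 (598 RPM), and Clec4f was read once in a single library (0.071 RPM) and not at all in the other 3. Replicate 1 also held the highest sums of neutrophil and erythroid markers, whose part was not tested. Leaving out this library is among the alternatives below.

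The genotype effect differed between organs for most of the named genes, by the interaction term of the limma fit. As log2 differences of the liver effect minus the spleen effect, the more positive ones were C6 5.11, Pcolce2 4.87, Gimap3 4.82, Lck 4.63, Cd5l 4.46, Thy1 4.33, Rims3 4.29, Gzmb 3.98, Lpl 3.96, Timd4 3.85, Poglut1 3.71, Slc40a1 3.18, Gzma 3.02, Nr1h3 2.77, Anp32e 2.57, Clec4f 2.30, Scd1 2.27, Rxra 2.22, Rbm7 2.11, Ifi203 2.06, Pld3 1.96, Mertk 1.88, Fcrl5 1.40 and Axl 1.40. Of these, the values of Lck, Gimap3, Gzmb, Thy1 and Gzma stand beside the lymphocyte marker sums given above. The more negative ones were Cxcl2 -8.21, Neat1 -7.60, Fosb -7.53, Alox15 -6.39, Egr1 -6.16, Osm -6.10, Fn1 -5.88, Ccl2 -5.51, Retnla -5.49, Hist1h1d -5.24, Ccl3 -5.14, Mmp9 -5.12, Ccl22 -4.86, Cldn10 -4.56, Cd83 -4.43, Pglyrp1 -4.24 and F13a1 -4.22. They were followed by Il10 -3.58, Serpinb10 -3.53, Nr4a1 -3.42, Ltf -3.37, Ifnb1 -3.37, Epx -3.08, C3ar1 -3.06, Il6 -2.71, H2-Oa -2.61, Ccr2 -2.50, Isg20 -2.12, Bub1 -2.01, Cx3cr1 -1.87, Tipin -1.82, H2-DMb2 -1.81, Usp18 -1.73, Bach1 -1.51 and Tnf -1.43.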

How the results depend on the processing

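The interaction was called for 2193 to 4277 genes under the alternatives that kept each replicate, and for 2090 to 3299 with 1 library left out. Between 70.4% and 100% of the 2922 calls were kept, and none was called in the other direction in any of them. Counts in the spleen and of the response classes moved more. Without the filter, 3977 genes were lower in the liver, 270 higher and 277 lower in the spleen, 3019 higher in wild-type liver than spleen, 174 shared higher, 158 shared lower, 22 and 13 opposite and 1715 lower in the liver only. DESeq2 gave 926 higher in the spleen, 461 shared higher and 77 opposite genes lower in the liver. Fitting all 29 libraries gave 693 higher in the spleen, 44 opposite genes lower in the liver and 85 higher in the spleen only. Library weights gave 890 higher and 780 lower in the spleen, 445 and 452 shared, 75 and 91 opposite, 1355 higher in the liver only and 114 and 90 in the spleen only. Above 2-fold, 1387 genes were higher in the liver, 228 lower in the spleen, 736 higher and 861 lower by genotype, 1055 and 620 by organ, 443 lower by organ in wild type, 1377 and 1176 by organ in deficient cells, 176 and 133 shared, 14 and 13 opposite, 496 higher in the liver only and 30 and 26 in the spleen only. At an adjusted p below 0.1 with no fold limit, they were 918 and 875 in the spleen, 2996 and 2959 by genotype, 3236 and 2984 by organ, 2009 lower by organ in wild type, 496 and 494 shared, 69 and 57 opposite and 123 and 128 in the spleen only. Without both deficient spleen libraries high in neutrophil markers, an alternative chosen after seeing the data, 280 and 231 genes were called in the spleen, 145 shared lower, 27 opposite higher in the liver and 34 lower in the spleen only. With 1 library left out, 178 to 553 genes were higher and 148 to 524 lower in the spleen, 1012 to 1855 higher in wild-type liver than spleen, 129 to 302 and 93 to 302 shared, 15 to 42 and 8 to 35 opposite and 16 to 80 and 16 to 69 in the spleen only. Libraries with the same replicate number did not deviate together throughout (correlations from -0.19 to 0.38, with the highest between wild-type spleen and wild-type liver, where all 3 were above 0), so that they were not taken as paired. With the replicate block the interaction was called for 2536 genes, and 84 were higher in the spleen only. Of single genes without an interaction call, Lox turned sign with an added value of 0.1 (-0.22), DESeq2 (-1.35) and edgeR (-1.18), Ndrg1 with single libraries left out (-0.14 to 0.50) and Pou2af1 likewise (-0.006 to 1.58). Epx, called in limma, had values of 0.71 in DESeq2 and 1.54 in edgeR, neither called. The cause was not tested.

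Neither genotype and sex in the liver nor organ and sorting route can be told apart, and each group holds 3 or 4 libraries. The median standard error of the interaction was 0.32 on the log2 scale, so that a missing call does not show equal effects. The simulation held far fewer changed genes than the real fit called, so it does not give the share missed here. Depth limits values below the floor of 3 reads per library.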
